A study of Mus musculus with 9 samples.

Results

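The aryl hydrocarbon receptor and 4 genes downstream of it were followed in heart tissue from mice of the immunodeficient NOD-SCID strain. The 5 genes are Ahr, which encodes the receptor, Ahrr, which encodes its repressor, and the target genes Cyp1a1, Cyp1b1 and Tiparp. They were found by matching the mouse Ensembl identifiers of the count tables to these symbols, and all 5 were among the 53465 genes counted and the 13825 genes with enough counts to test. Cyp1a1 was selected on its counts, which separate the groups, so its levels are given as a description with no test, and the other 4 genes were tested for whether they followed it. RNA was sequenced from heart tissue of 3 groups with 3 libraries each, and the labels call the tissue of every group, sham included, infarct border zone. The sham group had surgery without ligation. The ligation group had a coronary artery ligated. The third group, called ligation plus cells here, had the same ligation and received an implant of cells that the labels name FOXO3-GE-MPCs. The source label of 2 of the 3 libraries with cells names FOXO4 or FOXO5 in place of FOXO3, while their titles and treatments name FOXO3, which was followed. The labels used here give no age of the mice, time after surgery or species of the implanted cells, and reads from those cells were not analysed here. Nothing in the labels says that libraries came from separate mice, so p-values measure only the spread between these samples, which may be technical.

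The receptor is a ligand-activated transcription factor of the bHLH-PAS family that waits in the cytosol bound to heat shock protein 90 and co-chaperones. When a planar aromatic compound or a tryptophan metabolite binds it, the receptor enters the nucleus, pairs with Arnt and binds short DNA sites with the core letters GCGTG near genes such as Cyp1a1, Cyp1b1, Tiparp and Ahrr. Ahrr and Tiparp, once made, dampen the receptor, and the cytochrome P450 enzymes can clear its ligands. In blood vessels, Cyp1a1 and Cyp1b1 are known as endothelial genes that respond to flow.

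The core letters, to which the receptor binds, were looked for in the stretch just before the RefSeq start of each gene. Sites farther from the start were not searched, and whether the receptor uses the marked letters was not tested. The sequences below are the RefSeq promoter windows of build GRCm38.p6, 250 bases before the RefSeq start, written 5′ to 3′ along the gene. For Cyp1a1 this start lies 9685 bases inside the gene as GENCODE places it, which includes a longer transcript, and for Tiparp it lies 37 bases inside. For Cyp1b1 and Ahrr the starts in both annotations are the same. Capitals mark GCGTG on either strand, which reads as CACGC when the site lies on the other strand. The Cyp1a1 window is chr9:57697363-57697612 on the plus strand, the Cyp1b1 window is chr17:79715062-79715311 on the minus strand, and the Ahrr window is chr13:74292332-74292581 on the minus strand. The Tiparp window is chr3:65528197-65528409 on the plus strand, shortened to 213 bases to end before the GENCODE transcript.
Cyp1a1: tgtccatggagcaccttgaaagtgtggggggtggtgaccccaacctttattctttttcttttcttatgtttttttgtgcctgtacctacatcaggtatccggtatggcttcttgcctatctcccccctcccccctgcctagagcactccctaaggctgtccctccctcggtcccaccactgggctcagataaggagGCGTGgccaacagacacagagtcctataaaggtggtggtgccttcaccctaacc
Cyp1b1: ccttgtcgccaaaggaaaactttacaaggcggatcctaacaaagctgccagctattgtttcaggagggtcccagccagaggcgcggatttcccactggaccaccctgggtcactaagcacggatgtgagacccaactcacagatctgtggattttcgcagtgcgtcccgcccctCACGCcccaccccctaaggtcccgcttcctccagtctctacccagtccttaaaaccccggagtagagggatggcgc
Ahrr: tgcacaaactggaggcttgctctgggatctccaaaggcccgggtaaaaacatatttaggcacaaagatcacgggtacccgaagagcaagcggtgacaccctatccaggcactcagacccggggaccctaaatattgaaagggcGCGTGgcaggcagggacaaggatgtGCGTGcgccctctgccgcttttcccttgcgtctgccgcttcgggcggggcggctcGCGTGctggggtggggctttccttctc
Tiparp: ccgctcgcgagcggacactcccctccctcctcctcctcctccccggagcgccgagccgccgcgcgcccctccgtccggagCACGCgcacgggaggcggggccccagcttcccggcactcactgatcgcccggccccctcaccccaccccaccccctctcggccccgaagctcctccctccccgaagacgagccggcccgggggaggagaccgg
The Cyp1a1 window held 1 core, 54 bases before the start, and the Cyp1b1 window held 1 core, 76 bases before the start. The Ahrr window held 3 cores, at 107, 82 and 27 bases, and was the only one of these 4 windows with the longer form TNGCGTG, which contains the core and was searched on both strands. In the Tiparp window 1 core lay 170 bases before the RefSeq start, which is 133 bases before the end of the printed stretch. Over all 32851 RefSeq windows of 250 bases, 28.2% held GCGTG and 4.10% held TNGCGTG, so a core is a common match and describes these letters only. The promoter table held 4 of the 5 genes and had no entry for Ahr.

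The 9 libraries held 4549268 to 7515052 counts in genes. Levels are given as CPM, the counts of a gene relative to the size of its library, scaled by the trimmed mean of M values, a factor that makes the bulk of genes comparable between libraries. Mitochondrially encoded genes took 19.1% to 19.9% of the counts in the sham libraries and 12.5% to 14.3% in the 6 ligated ones. Leaving those genes out kept the calls of Ahr and Cyp1b1 and lost that of Tiparp after ligation (0.33, adjusted p = 0.0579, edgeR). Heart muscle markers identified the tissue in all 9 libraries, with summed levels of 21664 to 29659 CPM for 6 genes such as Myh6 and Tnnt2. In the ligation against sham comparison 38.2% of the tested genes passed an adjusted p of 0.05, in ligation plus cells against ligation 9.87%, and in ligation plus cells against sham 40.9%. These comparisons share libraries, since each group enters 2 of the 3 comparisons.

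**Figure D1:**
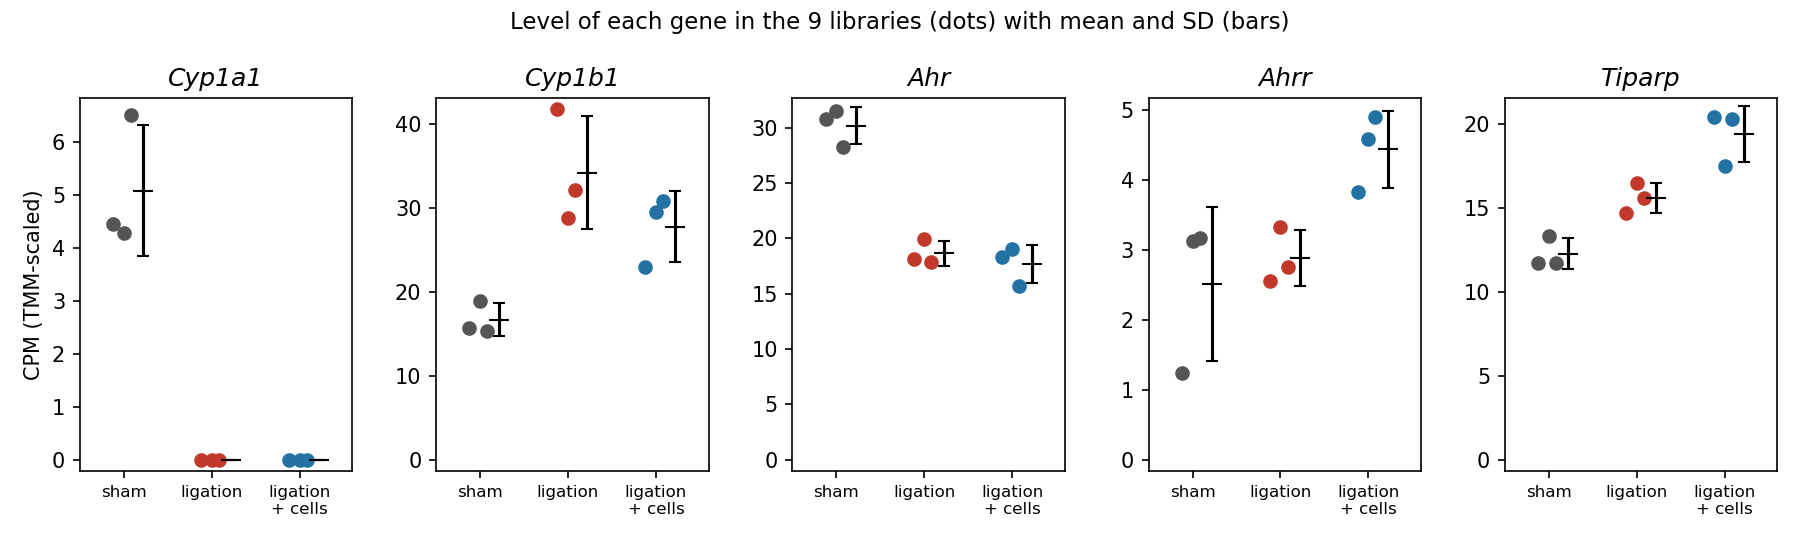
Each panel plots 1 gene, with its level in CPM on the vertical axis (a separate linear scale per panel), the 3 groups on the horizontal axis, 1 dot per library, and bars for the mean and SD of 3 libraries. Cyp1a1 lies at 0 in all 6 ligated libraries, Ahr lies lower and Cyp1b1 higher in them than in sham, and Ahrr and Tiparp have their highest means with cells.

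Ahr (ENSMUSG00000019256, chr12:35497974-35535038, minus strand, GRCm38) fell after ligation and was also below sham in the hearts with cells. Its levels were 30.8, 31.5 and 28.3 CPM in the sham libraries, 18.1, 19.97 and 17.9 CPM after ligation, and 18.3, 19.0 and 15.7 CPM with cells. All 3 sham libraries lay above all 6 ligated ones, and the ranges of the 2 ligated groups overlapped. The means were 30.2 ± 1.69, 18.7 ± 1.15 and 17.7 ± 1.74 CPM (SD, n = 3 each). The log2 fold change was −0.69 (SE 0.112, adjusted p = 4.82e-05, quasi-likelihood test of edgeR, Benjamini-Hochberg adjusted over all tested genes) for ligation against sham. It was −0.77 (SE 0.111, adjusted p = 1.13e-05, same edgeR test) for ligation plus cells against sham. Between the 2 ligated groups the difference was −0.08 (SE 0.117, adjusted p = 0.752, edgeR), smaller than its error. An antisense transcript, Gm48236, overlaps 2.06% of the exonic bases of Ahr, and the strand of the counting is not given in the sources used here.

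Ahrr (ENSMUSG00000021575, chr13:74211118-74292331, minus strand), the repressor that competes with the receptor for Arnt, had the lowest level per length of exon of the 4 genes detected in every group. Sham libraries held 7, 19 and 20 Ahrr counts, ligation libraries 12, 23 and 22, and libraries with cells 27, 33 and 34. In CPM these were 1.25, 3.13 and 3.17 in sham, 2.56, 3.33 and 2.75 after ligation, and 3.83, 4.58 and 4.90 with cells. The 3 libraries with cells lay above the other 6, while the sham and ligation ranges overlapped. The differences did not pass the threshold. They were 0.19 on the log2 scale (SE 0.344, adjusted p = 0.708) for ligation against sham, 0.61 (SE 0.309, adjusted p = 0.250) for cells against ligation, and 0.80 (SE 0.320, adjusted p = 0.0525) for cells against sham, all by edgeR's quasi-likelihood test. Sham replicate 1, with 7 counts, weighed on these values. Without it, ligation against sham was −0.12 and cells against sham 0.49 (adjusted p = 0.818 and 0.237, edgeR), while without sham replicate 2 or 3 cells against sham was 0.97 or 0.995 and passed (adjusted p = 0.04997 and 0.0459, edgeR).

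Cyp1a1 (ENSMUSG00000032315, chr9:57687928-57703824, plus strand), the P450 enzyme most often used as a readout of receptor activity, had counts in every sham library and in none of the others. The sham libraries held 25, 26 and 41 counts, which are 4.45, 4.28 and 6.51 CPM, with 95% exact Poisson intervals of 2.88 to 6.57, 2.80 to 6.28 and 4.67 to 8.83 CPM. The sham mean was 5.08 ± 1.24 CPM (SD, n = 3). All 3 ligation libraries and all 3 libraries with cells had 0 counts, out of 18651591 and 20621636 counts in all. A count of 0 was taken to allow a level of up to 3 counts. This is 0.375 to 0.639 CPM in a ligation library and 0.416 to 0.432 CPM in a library with cells. The exact Poisson intervals, as used for sham, reach higher, up to 0.786 CPM after ligation and 0.531 CPM with cells. Such limits and intervals cover counting error only. The sham mean was 7.95-fold the highest 3-count limit after ligation and 11.8-fold that with cells, with no allowance for the error of the sham mean. Whether any of the transcript remained below these limits was not detectable at this depth. Only 5.52% of the 31-base words in the exons of Cyp1a1 also occur in another gene, Cyp1a2, its neighbour and paralog, which had 0 counts in all 9 libraries.

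Cyp1b1 (ENSMUSG00000024087, chr17:79701537-79715061, minus strand), the related P450 that oxidizes estrogens and polycyclic aromatics and is common in stromal cells, moved opposite to Cyp1a1. Its levels were 15.7, 18.9 and 15.4 CPM in sham, 41.8, 28.8 and 32.1 CPM after ligation, and 23.0, 29.5 and 30.8 CPM with cells. Each of the 6 ligated libraries lay above each sham library, and the 2 ligated groups overlapped. Mean levels were 16.7 ± 1.98, 34.2 ± 6.73 and 27.8 ± 4.21 CPM (SD, n = 3 each). Cyp1b1 rose by 1.02 on the log2 scale after ligation (SE 0.145, adjusted p = 1.05e-05, edgeR) and was 0.74 higher with cells than in sham (SE 0.147, adjusted p = 0.000408, edgeR). With cells against ligation alone the value was −0.28 (SE 0.132, adjusted p = 0.212, edgeR), which did not pass. No 31-base word of its exons was found in another annotated gene.

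Tiparp (ENSMUSG00000034640, chr3:65528410-65555518, plus strand) encodes an ADP-ribosyltransferase that represses the receptor and is itself a receptor target. Its levels were 11.7, 13.3 and 11.7 CPM in sham, 14.7, 16.5 and 15.6 CPM after ligation, and 20.4, 17.5 and 20.3 CPM with cells. The 3 groups did not overlap and were ordered sham, ligation, ligation plus cells, with means of 12.3 ± 0.922, 15.6 ± 0.897 and 19.4 ± 1.67 CPM (SD, n = 3 each). Tiparp was higher with cells than in sham by 0.66 on the log2 scale (SE 0.130, adjusted p = 0.000377, edgeR), a call that held in all 19 alternatives tried. The smaller rise after ligation alone was 0.35 (SE 0.135, adjusted p = 0.0467, edgeR) and lay close to the threshold. It was no longer called in 14 of the 19 alternatives, where the adjusted p ranged from 0.00292 to 0.139 over all 19. Among these were the fits without sham replicate 1 or 3, ligation replicate 2 or 3, or cells replicate 1 or 3 (0.32, 0.32, 0.31, 0.34, 0.35 and 0.35). For cells against ligation the difference was 0.31 (SE 0.124, adjusted p = 0.136, edgeR), which did not pass although the libraries did not overlap. A pseudogene on the opposite strand, 4931440P22Rik, overlaps 5.12% of the exonic bases of Tiparp.

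**Figure D2:**
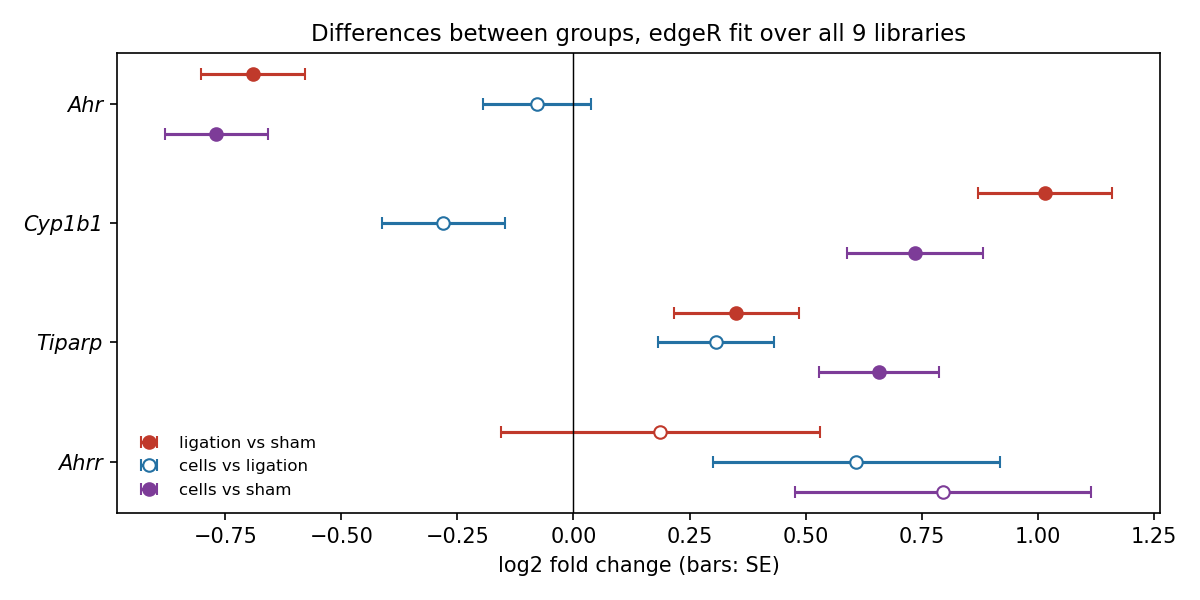
The horizontal axis gives the log2 fold change from the edgeR fit with its SE as a bar, for the 4 tested genes in the 3 comparisons, and filled circles passed an adjusted p of 0.05. Ahr lies left of 0 and Cyp1b1 right of 0 in both comparisons with sham, and no circle is filled for cells against ligation.

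Of the 4 genes other than Cyp1a1, 3 passed in ligation against sham, beside 38.2% of all tested genes. Of these, 2 rose (Cyp1b1 and Tiparp) and 1 fell (Ahr), where 20.1% of all tested genes rose and 18.0% fell. In ligation plus cells against ligation 0 of the 4 passed, beside 9.87% of all tested genes, of which 4.19% were higher and 5.69% lower with cells. In ligation plus cells against sham 3 passed, Cyp1b1 and Tiparp higher and Ahr lower, beside 40.9% of all tested genes, 21.0% higher and 20.0% lower. Among the 3 genes that, like Cyp1a1, are receptor targets, Cyp1b1 and Tiparp were called in the opposite direction and Ahrr did not pass in either. The receptor gene Ahr was lower in the same 6 libraries as Cyp1a1, and it remained detected in each of them at 52.0% or more of its sham mean.

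Per kilobase of exon the order of the genes also differed between the groups. In sham hearts Ahr stood first at 4.90 ± 0.275 CPM per kb, followed by Cyp1b1 at 2.85 ± 0.338 and Tiparp at 2.82 ± 0.212, whose ranges overlapped, then Cyp1a1 at 1.82 ± 0.445 and Ahrr at 0.267 ± 0.117. After ligation Cyp1b1 stood first at 5.86 ± 1.15 CPM per kb, before Tiparp at 3.58 ± 0.206, Ahr at 3.03 ± 0.186 and Ahrr at 0.305 ± 0.0425. With cells Cyp1b1 at 4.76 ± 0.721 and Tiparp at 4.45 ± 0.383 CPM per kb overlapped, and Ahr at 2.87 ± 0.282 and Ahrr at 0.470 ± 0.0581 followed. Cyp1a1 was last in both ligated groups, at 0. These are means and SDs over 3 libraries, and the exon lengths are those of the union of annotated exons, which can exceed the transcript that the heart makes.

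In whole tissue, fewer cells of a type and less RNA per cell cannot be told apart, so the levels of cell type markers are set beside these genes. The summed level of 7 endothelial markers, among them Pecam1, Cdh5 and Kdr, was 64.4% to 68.3% of the sham mean after ligation and 69.9% to 71.8% with cells, and 7 of 7 fell in each comparison with sham. Ahr stood at 59.2% to 66.2% of its sham mean after ligation and at 52.0% to 63.0% with cells. The median log2 change of the endothelial list was −0.63 after ligation and −0.51 with cells, beside 0.01 and −0.01 over all tested genes. Cyp1a1 stood at 0% in both ligated groups, and the part of endothelial cells in this was not tested.

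The summed level of 6 fibroblast markers was 132% to 135% of the sham mean after ligation and 131% to 136% with cells, and 4 of the 6 rose and 1 fell after ligation. Cyp1b1 lay at 173% to 251% and 138% to 185% of its sham mean in the same groups, above the fibroblast sums in every ligated library. That sum is mostly Dcn, and the markers differed among themselves. After ligation the log2 changes were 1.18 for Col1a1, 0.30 for Lum, 0.27 for Ddr2, 0.23 for Dcn, 0.08 for Tcf21, which did not pass, and −0.20 for Pdgfra, beside 1.02 for Cyp1b1. With cells against sham 3 of the 6 passed, Col1a1 at 1.05, Lum at 0.43 and Dcn at 0.26, beside 0.74 for Cyp1b1. The summed macrophage markers were at 148% to 154% after ligation and at 59.1% to 59.6% with cells. Of these markers, 6 of 6 were higher after ligation than in sham and 6 of 6 were lower with cells than after ligation. Cyp1b1 and Ahr both passed in ligation against sham, and neither passed in cells against ligation. Summed smooth muscle and pericyte markers stood at 71.6% to 74.8% of sham in the ligated libraries, and 3 of the 5 tested fell after ligation. Summed cardiomyocyte markers stood at 74.4% to 82.9%, but the 6 markers differed among themselves. After ligation 1 rose (Ryr2, 0.36) and 3 fell, among them Tnni3 at −0.95. With cells against sham 1 rose and 4 fell. The sum of 5 lung epithelium markers was 0.659 to 2.14 CPM in the sham libraries and 1.58 to 3.84 CPM in the ligated ones. Only 1 of the 5 had enough counts to test, and Sftpa1 had 0 counts throughout. Summed levels of 4 mesothelial markers, genes of the outer lining of the heart, were 30.2 to 39.7 CPM in sham, 190 to 227 CPM after ligation and 157 to 163 CPM with cells. All 4 of them rose against sham in both comparisons (median log2 change 2.9985 and 2.64). Summed neutrophil markers were at 36.2 to 44.1 CPM in sham, 12.6 to 20.1 CPM after ligation and 5.47 to 6.10 CPM with cells. Of the 3 tested, 2 fell after ligation (median −1.90) and 3 were lower with cells than in sham (median −2.89). The part of shifts in cell types in the levels of Cyp1a1, Ahr, Cyp1b1 and Tiparp was not tested.

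**Figure D3:**
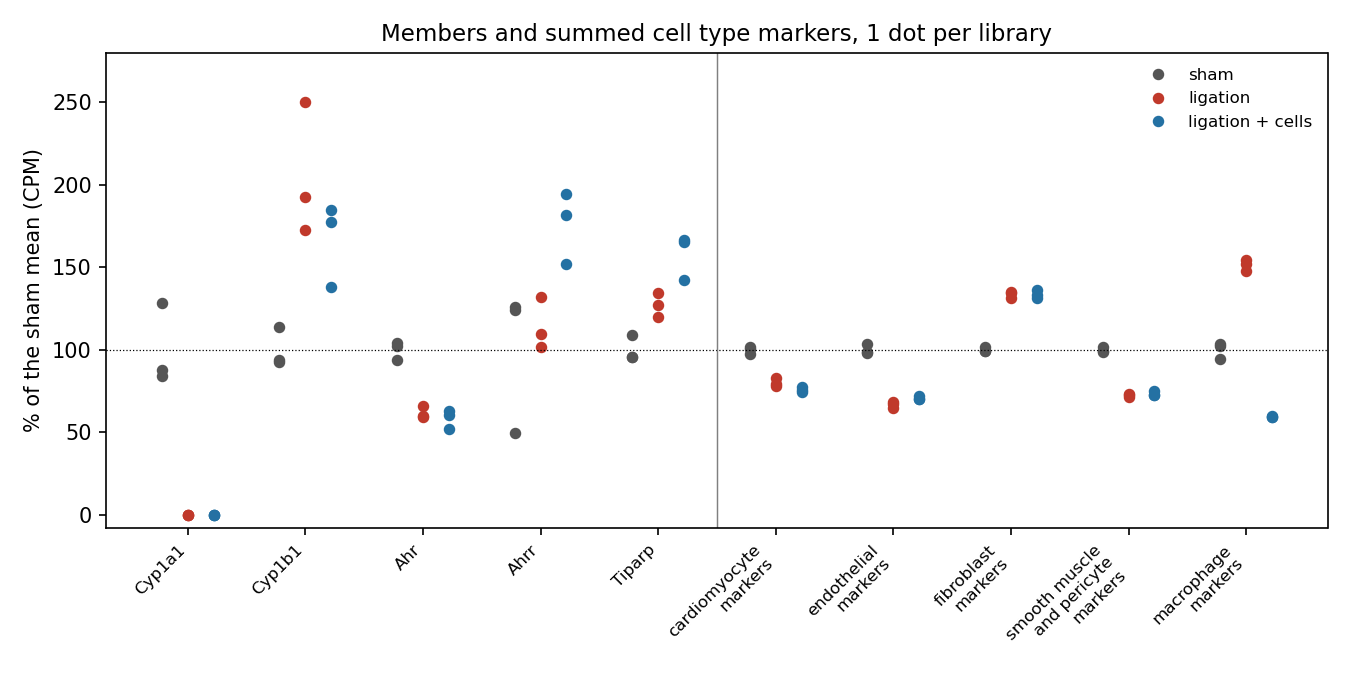
The vertical axis gives each library's level as a percentage of the sham mean, for the 5 genes (left) and for the summed markers of 5 cell types (right), with 1 dot per library coloured by group. In the 6 ligated libraries Cyp1a1 lies at 0%, the endothelial sum lies between 64.4% and 71.8%, and Cyp1b1 lies above the fibroblast sum. The part of cell types in the levels of the 5 genes was not tested.

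The genes around Cyp1a1 were read beside it. Of 10 annotated genes within 100 kb, a set chosen after the Cyp1a1 values were seen, 7 could be tested, and 3 were higher and 0 lower after ligation, beside 20.1% and 18.0% of all tested genes. With cells against ligation 0 were higher and 2 lower, beside 4.19% and 5.69%, namely Csk at −0.46 and Scamp2 at −0.35 (adjusted p = 0.00101 and 0.0139, edgeR). Against sham 1 was higher and 0 lower with cells, beside 21.0% and 20.0%, namely Lman1l at 1.30 (adjusted p = 0.000264, edgeR), and Scamp2 and Csk did not pass there (−0.0028 and −0.16). The 3 genes higher after ligation were Lman1l, which rose by 1.15 on the log2 scale, Scamp2, by 0.35, and Csk, by 0.30 (adjusted p = 0.00117, 0.00463 and 0.00772, edgeR). Edc3, 4716 bases downstream of Cyp1a1, had mean levels of 14.1, 12.5 and 11.01 CPM in sham, ligation and ligation plus cells and did not pass (log2 fold change −0.15, SE 0.153, adjusted p = 0.471 for ligation against sham, edgeR).

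Genes with counts in each sham library and 0 in all 6 ligated ones were counted over the 53465 genes. This is the pattern of Cyp1a1 itself, again counted after the values were seen, so the counts only describe it. With more than 3 counts required in each sham library, 6 genes had it, Cyp1a1, Trim12a, Gm12381, Gm45012, Gm9104 and Rpl21-ps11. With 20 or more counts required, Cyp1a1 and Trim12a, a tripartite-motif gene of the antiviral Trim5 group, remained. In the opposite direction, 9 genes had more than 3 counts in each ligated library and 0 in all sham libraries.

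Across the 9 libraries the genes whose levels were most like Cyp1a1 included Ndufa2 (Pearson r = 0.996 of log2(CPM + 0.5), n = 9 libraries), Ttll1 (0.994), Uqcrc1 (0.994) and Atp5b (0.993). Ndufa2, Uqcrc1 and Atp5b encode subunits of the mitochondrial respiratory chain and ATP synthase. None of these 4 was lost from the ligated libraries. Ndufa2 had mean levels of 478, 279 and 281 CPM in sham, ligation and ligation plus cells. A high correlation with Cyp1a1 was common, since 424 of 13794 genes (3.07%) exceeded r = 0.95, Ahr among them at 0.952. For Ahr the most alike were Tufm (r = 0.990), Znrf1 (0.990) and Vtn (0.989), and for Cyp1b1 they were Atp2c1 (0.979), Pstpip1 (0.969) and Krt80 (0.966). For Tiparp they were Rap1gap2 (0.979), Foxp2 (0.977) and Haus8 (0.974), and for Ahrr they were 2810006K23Rik (0.966), Itprid2 (0.945) and Fgfr1op2 (0.932). Among the 5 genes themselves r with Cyp1a1 was 0.95 for Ahr, −0.50 for Ahrr, −0.84 for Tiparp and −0.89 for Cyp1b1. These values describe 9 libraries in 3 groups and carry no test. Cyp1a1 was at 0 in all 6 ligated libraries, so r with it mostly reflects how cleanly a gene separates sham from those libraries.

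The wider pathway was read in 6 lists of 47 genes, 33 of which had enough counts to test. After ligation 11 rose and 9 fell (60.6% of the tested 33, beside 38.2% of all tested genes), with a median log2 change of 0.10 beside 0.01 over all genes. With cells against ligation 6 rose and 4 fell (30.3% beside 9.87%), with a median of 0.03 beside 0.00. That count was 6 in all without ligation replicate 3 and 6 without cells replicate 3. With cells against sham 9 rose and 5 fell (42.4% beside 40.9%), with a median of 0.09 beside −0.01. Of these 44 calls, 29 were made in every alternative fit that gave the gene a value, which was 18 of the 19 for Gsta1 and all 19 for the others. These were 14 of 20 after ligation, 4 of 10 with cells against ligation and 11 of 14 with cells against sham. The lists were chosen with earlier results of these data known, so these shares do not measure whether the pathway changed more than other genes.

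**Figure D4:**
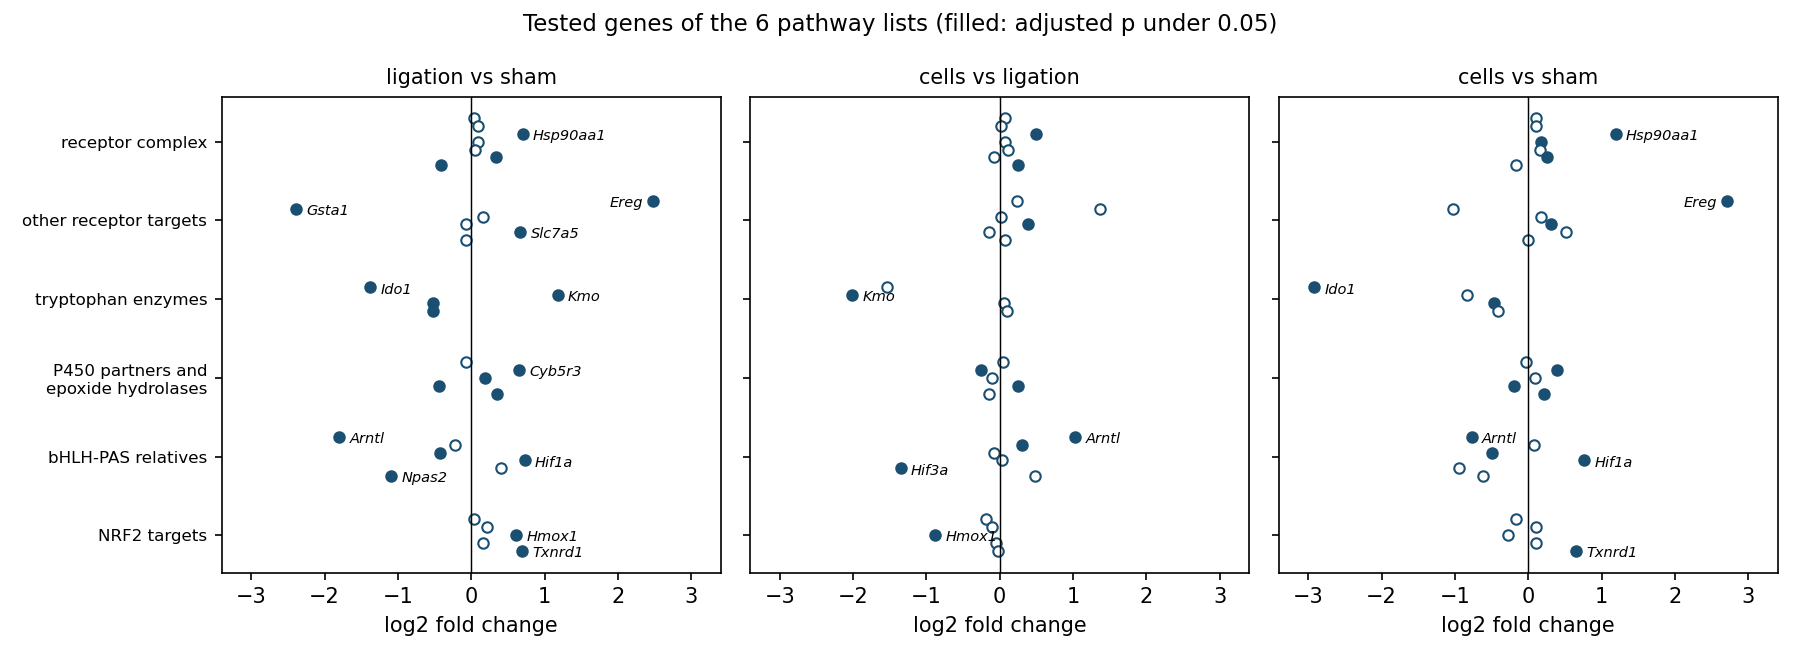
Each panel is 1 comparison and each circle 1 tested gene, placed by its log2 fold change within its pathway list, and filled circles passed an adjusted p of 0.05. After ligation the called genes lie on both sides of 0 in 5 of the 6 lists, with Ereg, Gsta1 and Arntl farthest out, and with cells against sham Ereg and Ido1 lie farthest out.

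In the receptor complex 2 of 7 tested genes rose and 1 fell after ligation, 2 rose and 0 fell with cells against ligation, and 3 rose and 0 fell with cells against sham. These are 42.9%, 28.6% and 42.9% of the tested list, beside 38.2%, 9.87% and 40.9% of all tested genes. Arnt, the partner of the receptor in DNA binding, had 47.3 ± 1.80, 50.9 ± 6.28 and 51.1 ± 4.91 CPM in sham, ligation and ligation plus cells (SD, n = 3 each) and passed in none of the comparisons. The coactivator Ncoa1 also did not pass, and Arnt2 was too low to test. Hsp90aa1, the inducible form of heat shock protein 90, rose at each step, from 174 ± 6.68 to 283 ± 14.2 and 397 ± 15.5 CPM. Its log2 changes were 0.70 after ligation, 0.49 with cells against ligation and 1.19 with cells against sham (adjusted p = 1.62e-09, 1.40e-06 and 3.68e-13, edgeR). The constitutive Hsp90ab1 rose with cells against sham, by 0.18 (adjusted p = 0.00101, edgeR). Ptges3, the p23 co-chaperone, fell by 0.42 after ligation and was 0.25 higher with cells than after ligation (adjusted p = 0.000153 and 0.0369, edgeR). The second of these was lost without ligation replicate 1 or 3 or cells replicate 1 or 2 (0.23, 0.20, 0.22 and 0.22, with adjusted p up to 0.175, edgeR). Ncoa2 rose by 0.33 after ligation and was 0.25 higher with cells than in sham, a call lost without sham replicate 3 or cells replicate 1 (0.24 and 0.21).

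Among 12 other receptor targets 6 could be tested, and they moved in different directions. After ligation 2 rose and 1 fell, with cells against ligation 1 rose and 0 fell, and with cells against sham 2 rose and 0 fell. These are 50%, 16.7% and 33.3% of the 6, beside 38.2%, 9.87% and 40.9% of all tested genes. Nqo1, a quinone reductase shared by the receptor and NRF2, had 50.2 ± 3.03, 47.6 ± 3.28 and 62.2 ± 6.30 CPM in sham, ligation and ligation plus cells. It was higher with cells than after ligation by 0.39 and than in sham by 0.31 (adjusted p = 0.00401 and 0.00544, edgeR). Gsta1, a glutathione transferase, was the one tested target that fell, with 16, 14 and 10 counts in sham, 2, 3 and 3 after ligation, and 7, 2 and 14 with cells. Its log2 change after ligation was −2.40 (SE 0.600, adjusted p = 0.00325, edgeR), and it did not reach 0. Gsta2 is a paralog of Gsta1, and how reads matching both were counted is not given in the sources used here.

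Ereg, the growth factor epiregulin, had 1, 4 and 3 counts in sham, 20, 12 and 17 after ligation, and 14, 28 and 22 with cells. It rose by 2.48 and 2.71 against sham (adjusted p = 0.00132 and 0.000373, edgeR). Slc7a5, an amino acid transporter, rose by 0.67 after ligation (adjusted p = 0.0246, edgeR), a call lost without sham replicate 3 or ligation replicate 3 (0.50 and 0.57). Nfe2l2 and Socs2 passed in no comparison. Cyp1a2 had 0 counts in all libraries, and Aldh3a1, Ugt1a6a, Ugt1a6b, Gsta2 and Serpinb2 were too low to test.

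Of 10 enzymes of tryptophan breakdown, a route to receptor ligands, 4 could be tested, and all 4 passed after ligation, with 1 higher and 3 lower, beside 20.1% higher and 18.0% lower of all tested genes. Of these 4 calls, those of Ido1, Kmo and Kyat3 were lost in some alternatives. With cells against ligation 0 were higher and 1 lower (4.19% and 5.69% of all tested genes), and with cells against sham 0 were higher and 2 lower (21.0% and 20.0%). Ido1, which starts the kynurenine route, had 24, 16 and 20 counts in sham, 7, 4 and 14 after ligation, and 3, 0 and 6 with cells, so the groups with ligation lay below sham. It fell by 1.38 after ligation (SE 0.477, adjusted p = 0.0268, edgeR) and was lower with cells than in sham by a log2 change of −2.92 (SE 0.572, adjusted p = 0.000341, edgeR). The first call was lost without sham replicate 1 or 3 or ligation replicate 2 (−1.18, −1.42 and −1.01). Kyat1, which turns kynurenine into kynurenic acid, fell by 0.52 after ligation and was at −0.46 with cells against sham (adjusted p = 0.00163 and 0.00335, edgeR). Kyat3, with the same activity, fell by 0.52 after ligation (adjusted p = 0.0310, edgeR), which was lost without sham replicate 2 or 3 or ligation replicate 1 or 3 (−0.52, −0.42, −0.50 and −0.42).

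Kmo, the hydroxylase that draws kynurenine away from that branch, had 3, 6 and 8 counts in sham, 10, 20 and 12 after ligation, and 5, 4 and 2 with cells. Its difference after ligation was 1.18 (SE 0.462, adjusted p = 0.04996, just under the threshold, edgeR) and was called in 3 of 19 alternatives. Among the 9 fits without 1 library (0.89 to 1.47), only the one without ligation replicate 3 kept the call. With cells against ligation Kmo fell by 2.02 (adjusted p = 0.0114, edgeR), which was lost without ligation replicate 2 or cells replicate 3 (−1.73 and −1.74). Tdo2, Ido2, Il4i1, Afmid, Kynu and Aadat were too low to test. The macrophage markers that fell with cells against ligation, given above, moved with Kmo, and their part in it was not tested.

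Of the 5 genes that serve P450 enzymes or clear epoxides, 3 rose and 1 fell after ligation, beside 20.1% and 18.0% of all tested genes. In cells against ligation 1 was higher and 1 lower (4.19% and 5.69% of all tested genes), and with cells against sham 2 were higher and 1 lower (21.0% and 20.0%). Por, which passes electrons to every microsomal P450, rose by 0.35 after ligation and 0.21 with cells against sham (adjusted p = 0.000978 and 0.0313, edgeR). The second call was lost without any 1 sham library, cells replicate 1 or cells replicate 3 (0.14 to 0.23). Cyb5r3, the cytochrome b5 reductase, rose by 0.64 after ligation and was 0.39 above sham with cells, and fell by 0.26 between the ligated groups (adjusted p = 8.57e-09, 9.61e-06 and 0.00313, edgeR). Ephx2, the soluble epoxide hydrolase, fell by 0.45 after ligation and was 0.25 higher with cells than after ligation (adjusted p = 2.78e-06 and 0.00733, edgeR), the second lost without ligation replicate 3 (0.21). It remained below sham with cells, at −0.20 (adjusted p = 0.00755, edgeR), which was lost when libraries were scaled by their totals alone (−0.04). Ephx1 rose by 0.19 after ligation (adjusted p = 0.0206, edgeR), lost without sham replicate 2 or ligation replicate 3 (0.15 and 0.16), and Cyb5a passed in no comparison.

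Among 6 bHLH-PAS relatives that use Arnt or its paralogs, 1 rose and 3 fell after ligation, beside 20.1% and 18.0% of all tested genes. Between the ligated groups 2 were higher and 1 lower with cells (4.19% and 5.69% of all tested genes), and with cells against sham 1 was higher and 2 lower (21.0% and 20.0%). Hif1a, the hypoxia factor that competes for Arnt, rose by 0.73 after ligation and 0.76 with cells against sham (adjusted p = 2.97e-08 and 1.29e-08, edgeR), from 66.0 ± 5.85 to 109 ± 1.11 and 112 ± 3.20 CPM. Epas1, its endothelial relative, fell by 0.42 after ligation and was at −0.50 with cells against sham (adjusted p = 1.50e-07 and 1.22e-08, edgeR). The clock factor Arntl fell by 1.80 after ligation, was 1.03 higher with cells than after ligation, and was at −0.77 with cells against sham (adjusted p = 2.34e-06, 0.00775 and 0.00402, edgeR). The second was lost without cells replicate 3 (0.86). Npas2 fell by 1.09 after ligation (adjusted p = 0.0305, edgeR), lost without sham replicate 1 or 3 or ligation replicate 1 or 2 (−1.09, −0.85, −0.92 and −0.94). Clock was 0.31 higher with cells than after ligation (adjusted p = 0.0259, edgeR), lost without ligation replicate 1 or 3 or cells replicate 1 or 3 (0.27, 0.28, 0.30 and 0.24). Hif3a was at −1.35 in that comparison (adjusted p = 0.0384, edgeR), lost without ligation replicate 2 or 3 or cells replicate 2 or 3 (−1.47, −0.97, −1.11 and −1.30). The hour at which hearts were taken is not in the labels used here, and its part in the clock genes was not tested.

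Of 5 tested targets of NRF2, an oxidant-sensing factor whose targets overlap with those of the receptor, 2 rose and 0 fell after ligation, which is 40% of the list beside 38.2% of all tested genes. Against ligation 0 were higher and 1 lower with cells, and with cells against sham 1 was higher and 0 lower, each 20% of the list, beside 9.87% and 40.9%. Txnrd1, thioredoxin reductase, rose by 0.69 after ligation and 0.66 with cells against sham (adjusted p = 1.73e-07 and 2.79e-07, edgeR). Hmox1, which breaks down heme, rose by 0.61 after ligation and fell by 0.88 with cells against ligation (adjusted p = 0.00204 and 0.000301, edgeR), with 12.99 ± 2.36, 19.8 ± 1.22 and 10.8 ± 1.03 CPM in sham, ligation and ligation plus cells. Gclc, Gclm and Srxn1 passed in no comparison, and Slc7a11 was too low to test.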

How the data were processed

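RNA-seq libraries from mouse heart, 3 per group, were compared by their titles and treatments. The authors deposited unnormalized counts of reads per Ensembl gene. The submitters' processing notes name the build mm10, and the aligner, counter, annotation and strand setting are not given in the sources used here. Rows without a gene (no feature, 4.14% to 4.91% of the sum over all lines of a file, and ambiguous, 8.09% to 8.72%) were left out. From the counts, edgeR 4.0.16 in R 4.3.3 was run with TMM factors, its expression filter and the quasi-likelihood test over all 9 libraries (6 residual degrees of freedom), with Benjamini-Hochberg adjustment over 13825 genes at a threshold of 0.05. Standard errors are the fold change divided by the square root of F. Symbols came from GENCODE M21 for 53274 of 53465 identifiers. Totals of 4549268 to 7515052 counts put the floor of 3 counts at 0.375 to 0.639 CPM. The members and lists were chosen with earlier results of these data known. Every member is named whatever its value, and listed genes are given values where called in any comparison or at 0 counts. Likeness was ranked for tested genes whose mean reached 1 CPM. Some genes that these rules name are not reported here. The alternatives were other scalings and filters, DESeq2 1.42.0, limma 3.58.1 voom, 2 groups alone, a replicate block, each library left out, and, added after seeing the data, sums of libraries with the same stem in their file headers (2 sham libraries, and 2 ligation libraries). Each such pair differed by more than counting noise, as every pair of a group did, and whether a pair came from 1 heart is not known. The fit was tested on simulated data.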

Additional observations from a re-analysis of the deposited data

How the results depend on the processing

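The calls of Cyp1b1 and Ahr kept their direction and their side of the threshold in all 19 alternatives of each comparison. The Tiparp difference after ligation (0.35) fell short of the threshold with relative log expression factors (0.34), without mitochondrially encoded genes (0.33) and with no filter on low counts (0.36). It also fell short with DESeq2 (0.34), with limma-voom (0.35), with only the 2 groups compared (0.34) and with libraries of a shared header stem summed (0.33). It ranged from 0.31 to 0.41 with 1 library left out and reached 0.54 over all 19 alternatives, 5 of which kept the call. Ahrr with cells against sham (0.80) passed with library totals alone (0.95) and with limma-voom (0.87), and ranged from 0.49 to 0.995 with 1 library left out, and its adjusted p over all 19 alternatives ran from 0.0192 to 0.237. Ahrr after ligation (0.19) ranged from −0.12 to 0.39, reversing without sham replicate 1. Replicate numbers did not pair the samples, since the correlations of same-numbered libraries ran from −0.12 to 0.13. With the replicate block Tiparp after ligation was 0.35 (adjusted p = 0.0621) and lost its call, Ahrr with cells against sham was 0.82 (adjusted p = 0.0452) and gained one, and the genes called numbered 5134, 1230 and 5511 beside 5277, 1365 and 5661. Called pathway genes with cells against sham numbered 22 with library totals alone, beside 14, and those with cells against ligation 6 to 10 with 1 library left out. Library totals alone put the median log2 change of all genes at 0.20, −0.03 and 0.15, beside 0.01, 0.00 and −0.01, and moved the share of higher calls from 52.7% to 78.7%, 42.4% to 32.0% and 51.2% to 73.1%. The cause was not tested. Ahrr rests on 7 to 34 counts per library.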

Other observations

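Another cytochrome P450, Cyp2e1, which oxidizes ethanol and small solvents and was measured here as a liver marker, moved strongly and opposite to Cyp1a1. It had 4.27, 3.46 and 3.17 CPM in the sham libraries, 79.3, 77.1 and 86.5 CPM after ligation, and 28.8, 33.8 and 27.5 CPM with cells, and the 3 groups did not overlap. The log2 fold change was 4.48 (SE 0.130, adjusted p = 3.30e-16, edgeR's quasi-likelihood test) for ligation against sham and −1.43 (SE 0.0884, adjusted p = 3.47e-10, edgeR) for cells against ligation. Of the other 4 liver markers, Alb and Apoa1 had no more than 2 counts in each library, Ttr had 4 to 17 and Serpina1a 0 to 24, and Ttr and Serpina1a passed in no comparison (edgeR).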
